A study of Lytechinus variegatus with 18 samples.

Results

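The proteins of the cytoplasmic ribosome were followed through 81 gene models of the sea urchin Lytechinus variegatus, of 27230 gene models in the count table. A gene model was taken where its closest match among genes of Strongylocentrotus purpuratus, the purple sea urchin, carried a ribosomal protein name of the large (Rpl) or small (Rps, Rpsa) subunit. S6 kinases were left out, and a mean of at least 5 counts over the 18 libraries was required. Of 84 gene models with such a name, 3 were under that mean. The 81 hold 47 models of the large and 34 of the small subunit under 59 distinct names, on 18 chromosomes. Identity to the S. purpuratus hit ran from 60.5% to 100%, with a median of 93.1%, and was at least 90% for 57 models.

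The libraries came from total RNA of whole wild-type embryos, each from a pool of about 150 embryos. Embryos were given ethanol at fertilization or kept as controls, and were collected at 15, 18 and 21 hours post fertilization (hpf). This gave 6 groups, control and ethanol at each time, of 3 biological replicates each. The ethanol dose is not given in the sources used here, and neither is the parentage of a replicate, so p-values measure the spread between these labelled replicates.

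Ribosomes join a small subunit, which binds the mRNA and reads its codons, to a large subunit, which forms the peptide bonds. Ribosomal proteins are made in equal numbers, since 1 ribosome holds about 1 copy of nearly every one of them, and their mRNAs are among the most abundant of a cell. Sea urchin eggs carry a large maternal store of ribosomes, and in vertebrates the mRNAs of ribosomal proteins are regulated at translation as well as in amount. Roles of single proteins given here are those known from yeast and human ribosomes.

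Library totals ran from 7133636 to 8000894 counts, and 18674 gene models, with all 81 ribosomal protein models among them, passed the expression filter. Mean counts of the 81 ran from 14.1 to 19667 with a median of 3377, and 78 had at least 50 counts in every library. Just inside the mean of 5 counts was a model named Rpl37 (L_var_09380) with 14.1. Among those outside was Rpl15_1 (L_var_25504) with 1.11. Markers of skeletogenic mesenchyme, pigment cells, endoderm, apical neuroectoderm, aboral ectoderm and ciliated cells were present in every library, with at least 1 count for 25 of 28 marker models. Deviations from the group means were compared across genes for control and ethanol libraries that share a replicate number, and correlated at 0.600 to 0.742 at 15 hpf and at 0.630 to 0.680 at 18 hpf. At 21 hpf replicate 1 had 0.156, replicate 2 had 0.402 and replicate 3 had -0.222. The replicate 3 pair at 21 hpf stood apart in this way, and many counts and medians of the 81 that include it are also given without it. Values of single genes and of the other gene lists mostly are not.

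Ribosomal protein models took between 1.92% and 9.86% of a library's counts. At 15 hpf the share was 2.50%, 7.20% and 4.16% in control replicates 1, 2 and 3, and 1.92%, 5.85% and 2.48% in ethanol replicates 1, 2 and 3. Replicate 2 was highest in both groups, and the groups overlapped. At 18 hpf the control libraries held 4.76%, 9.44% and 5.74%, and the ethanol libraries 2.89%, 5.56% and 2.39%. Each ethanol library lay under the control library of its number, but ethanol replicate 2 lay above control replicate 1. At 21 hpf the control libraries held 5.68%, 9.86% and 7.42%, and the ethanol libraries 5.35%, 6.34% and 6.70%. Group means went from 4.62% ± 2.39 to 6.65% ± 2.47 and 7.65% ± 2.10 over the 3 times in control embryos, and from 3.42% ± 2.13 to 3.61% ± 1.71 and 6.13% ± 0.700 in ethanol embryos (SD, n = 3 each). In bulk RNA, fewer cells of a type and less RNA per cell cannot be told apart.

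**Figure D1:**
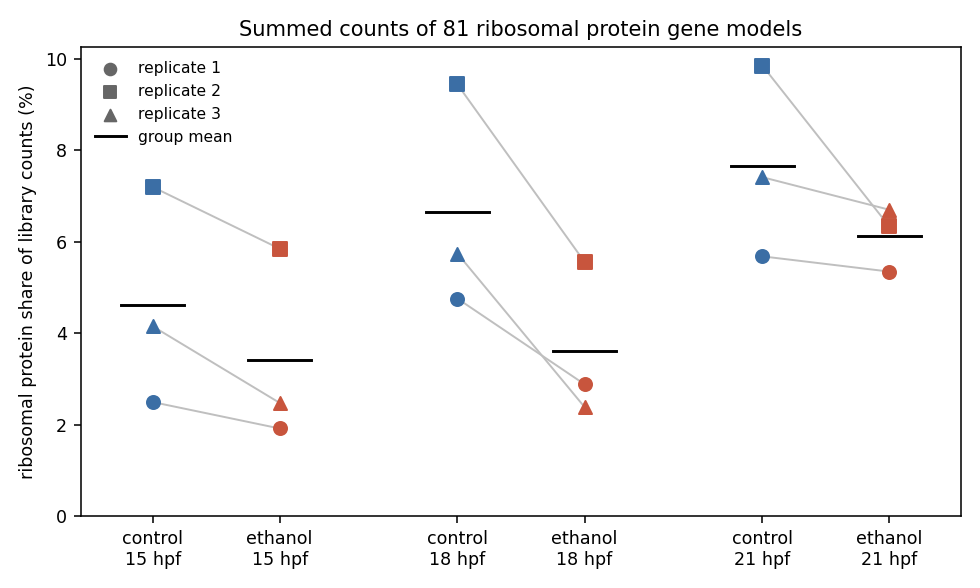
Share of each library's counts taken by the 81 ribosomal protein gene models, in percent, by group (hpf, hours post fertilization). Symbols are replicate numbers, blue is control, red is ethanol, grey lines join libraries of 1 number and black bars are group means. All 9 lines run down from control to ethanol, from 4.76% to 2.89% in replicate 1 at 18 hpf for example, and the groups overlap at every time.

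The 81 models moved together across libraries. The median standard deviation of a model over the 18 libraries was 0.906 in log2 CPM, where CPM is a count scaled to library size, against 0.525 for all gene models tested. Once the median deviation of the 81 was taken away from each library, the median standard deviation of a model was 0.208, and 50 of 81 were under 0.25. Closest to the common course was Rps25 (L_var_15717), with 0.104, followed by Rps3A (L_var_01106), with 0.119, and Rps3 (L_var_00432), which lines the mRNA entry channel, with 0.122. Of the variance of the common course, 43.8% went with replicate number, 20.4% with treatment and 17.1% with time. Since the models share this course, their 81 estimates are not 81 independent observations of an ethanol effect. The ratio of large to small subunit counts stayed between 0.816 and 1.02 in all 18 libraries.

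**Figure D2:**
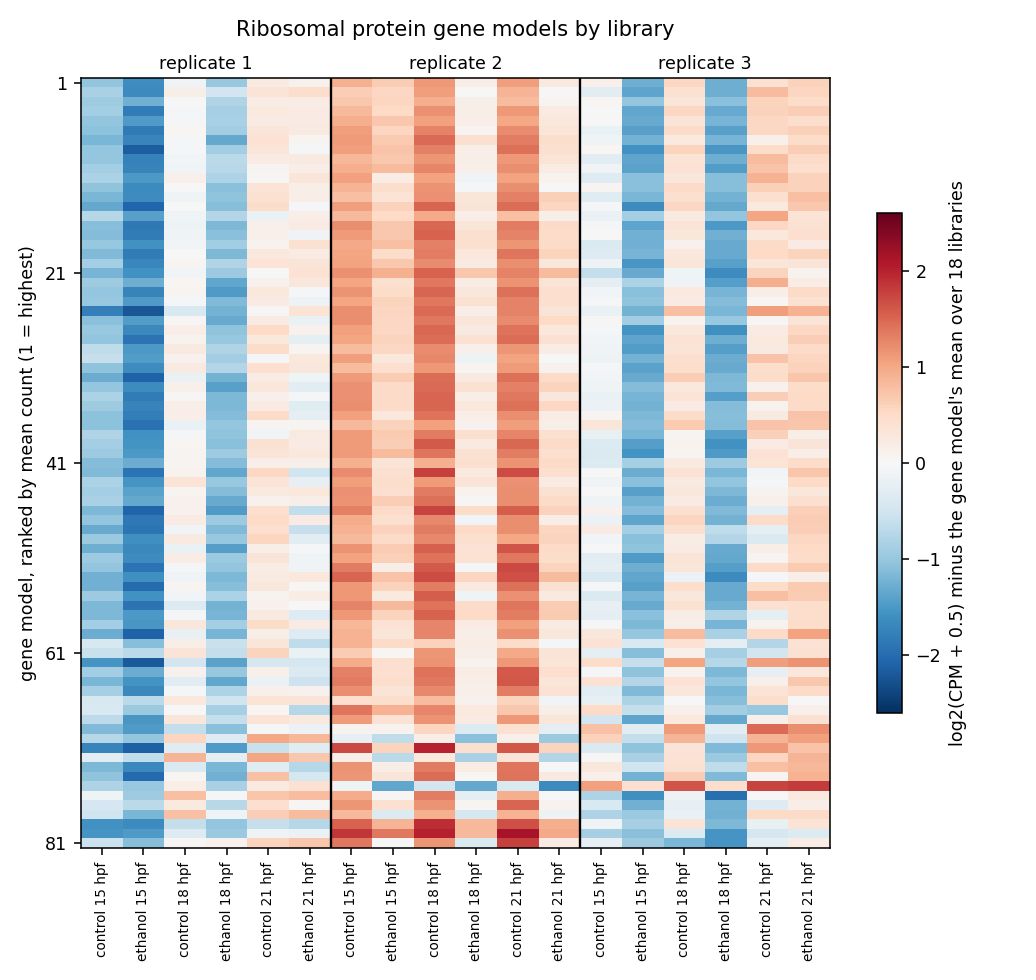
Heat map of the 81 gene models (rows, highest mean count at the top) over 18 libraries (columns, ordered by replicate, time and treatment). Colour is log2(CPM + 0.5) minus the model's own mean. Columns are nearly uniform from top to bottom, replicate 2 is red in most rows, and rows of mixed colour gather among the models with low counts.

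At 18 hpf, where the estimates were largest, all 81 ribosomal protein models had a lower estimate in ethanol embryos. The median log2 fold change was -1.19, with a range from -1.52 to -0.57, against a median of 0.05 over all gene models tested, of which 46.9% had an estimate below 0. The median difference between ethanol and control libraries of the same number was -1.01, -1.10 and -1.53 in replicates 1, 2 and 3, which is 2.02-fold, 2.15-fold and 2.89-fold lower. Every pair was lower in 80 of 81 models, against 31% of all gene models. Ethanol libraries lay wholly under control libraries in 13 of 81 models, a share near the 13.8% of all gene models.

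Without a term for replicate number, 0 of 81 models passed an adjusted p of 0.05 at 18 hpf (edgeR quasi-likelihood test, Benjamini-Hochberg over 18674 gene models), against 0% of all gene models called. An unadjusted p under 0.05 was reached by 22 of them, against 16.4% of all gene models, and the smallest adjusted p was 0.232. DESeq2 and limma-voom called 0 as well. With the replicate number as a block, 43 of 81 models fell in ethanol embryos and none rose, against 2.61% of all gene models called lower. The 43 were 30 of 47 models of the large and 13 of 34 of the small subunit. Their adjusted p-values lay between 0.0426 and 0.0495, just under the threshold. The call did not hold in every subset: the blocked fit called 0 without replicate 1 and 0 without replicate 2. The shares of all gene models in these fits are not given here, so no loss particular to the 81 is shown. The blocked fit called 8 without replicate 3, against 3.5% of all gene models. It called 79, against 14.7% of all gene models, without the replicate 3 pair at 21 hpf.

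Marker levels of several cell types also differed between the libraries at 18 hpf. The 5 ciliated cell markers had a median difference of -0.74, -0.67 and -1.03 in log2 CPM in replicates 1, 2 and 3, with 5, 5 and 4 of 5 lower in ethanol embryos. Their summed level was 1747 to 2462 CPM in control and 943 to 1351 CPM in ethanol libraries. Both pigment cell markers were higher in every pair, with sums of 3472 to 6670 CPM in control and 6974 to 7315 CPM in ethanol libraries. Sums also lay apart for the 9 skeletogenic markers tested, at 3289 to 4117 CPM in control and 2462 to 3148 CPM in ethanol libraries, and for the 3 aboral ectoderm markers tested, at 466 to 589 and 403 to 427 CPM. Sums weigh markers by their counts, and Sm30A and Msp130 had the most of the skeletogenic ones. The median skeletogenic deviation from each gene's mean was -0.07, -0.45 and 0.03 in control and -0.06, -0.01 and -0.34 in ethanol replicates 1, 2 and 3. Only replicate 3 was clearly lower in ethanol. For the aboral ectoderm it was 0.07, 0.89 and 0.06 against 0.21, -0.04 and -0.39, higher in ethanol in replicate 1. Sums of the endoderm (2789 to 2895 against 2518 to 3567 CPM) and of the apical neuroectoderm (494 to 574 against 343 to 587 CPM) overlapped. No marker tested was at 0 in a whole group. Control libraries had counts for 21472 to 22573 gene models and ethanol libraries for 22962 to 23535. The part of the marker levels and of the number of detected gene models in the ribosomal protein estimates was not tested.

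Rps23 (L_var_07694, chromosome 3, 71575859 to 71576742 on the plus strand of the deposited annotation), a protein of the decoding centre, had the smallest adjusted p of the 81 in the blocked fit. Its level at 18 hpf was 358, 887 and 383 CPM in control replicates 1, 2 and 3, and 132, 336 and 134 CPM in ethanol replicates 1, 2 and 3. Every ethanol library was under every control library. The log2 fold change was -1.43 (SE 0.61, adjusted p of 0.279 in edgeR) without and -1.45 (SE 0.28, adjusted p of 0.0426 in edgeR) with the block.

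Rpl31 (L_var_00951, chromosome 1, 32832544 to 32837861, plus strand), which sits at the mouth of the tunnel through which the new chain leaves, had one of the lowest estimates. Control libraries at 18 hpf held 189, 589 and 244 CPM, and ethanol libraries 95.5, 191 and 71.9 CPM. Ethanol replicate 2 was level with control replicate 1, and the groups overlapped. Its log2 fold change was -1.51 (SE 0.67, adjusted p of 0.285 in edgeR), or -1.42 (SE 0.30, adjusted p 0.0432) with the block.

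Both models named Rpl26, a large subunit protein also near the tunnel exit, were low in ethanol embryos at 18 hpf. The first (L_var_20268, chromosome 12, 32283150 to 32288517, plus strand) had 372, 1193 and 451 CPM in control and 137, 418 and 152 CPM in ethanol libraries. The second (L_var_10631, chromosome 5, 21559559 to 21559900, plus strand), with a mean count of 369 against 3181, had 43.0, 114 and 64.6 CPM in control and 17.2, 43.3 and 18.4 CPM in ethanol libraries. In both, ethanol replicate 2 alone reached into the control range. Log2 fold changes were -1.51 (SE 0.72) and -1.49 (SE 0.64), with edgeR adjusted p-values of 0.305 and 0.280, and 0.0455 and 0.0481 with the block.

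The model with the smallest unadjusted p at 18 hpf was 1 of 2 models named Rpl23 (L_var_06960, chromosome 3, 46140587 to 46150328, minus strand). It had 91.8, 59.3 and 64.2 CPM in control and 41.8, 27.3 and 25.1 CPM in ethanol libraries, so that the groups lay apart. Replicate 2 was not its highest library, as it was in most of the 81, and its SE of 0.35 was small. The log2 fold change was -1.19, with an adjusted p of 0.232 in edgeR, and 0.0477 with the block.

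The 5 models with the highest mean counts did not pass in either fit at 18 hpf. Rpsa (L_var_17957), a small subunit protein also known as a laminin receptor, had 1931, 3759 and 2437 CPM in control and 1132, 2174 and 913 CPM in ethanol libraries. Ethanol replicate 2 lay between control replicates 1 and 3, and the log2 fold change was -0.95 (SE 0.49, adjusted p of 0.335 in edgeR, 0.0745 with the block). Rps3A and Rps2 (L_var_17897), of the small subunit, had -1.15 and -1.10, and Rpl7_1 (L_var_01454) and Rpl5 (L_var_23156), which binds the smallest rRNA of the large subunit, had -1.19 and -1.05. Their adjusted p-values with the block were 0.0577, 0.0863, 0.0579 and 0.0685.

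Among the smaller estimates at 18 hpf, Rpl22 (L_var_21969) had -0.83 (SE 0.54, adjusted p of 0.416 in edgeR), with 429, 772 and 476 CPM in control and 187, 544 and 211 CPM in ethanol libraries.

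**Figure D3:**
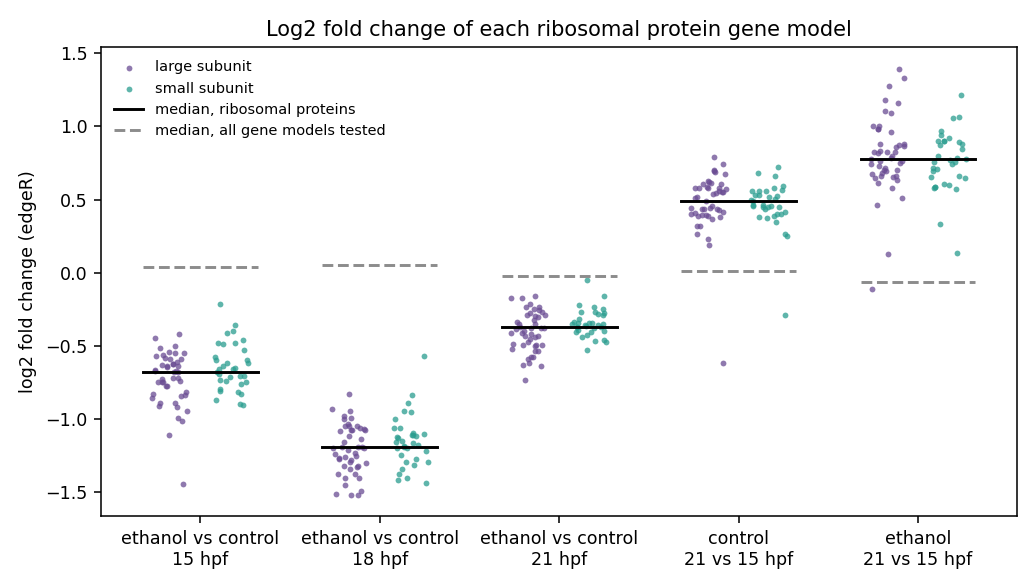
Log2 fold change of each ribosomal protein gene model (points, purple for large and green for small subunit) in 5 comparisons, from the edgeR fit without a replicate term. Black bars are medians of the 81 models and dashed grey bars medians of all gene models tested. All 81 points lie under 0 in the 3 ethanol comparisons, with medians of -0.68, -1.19 and -0.37, and nearly all lie above 0 from 15 to 21 hpf.

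At 15 hpf the estimates were again all lower in ethanol embryos. The median log2 fold change was -0.68, with a range from -1.44 to -0.22, against 0.04 over all gene models, of which 47% had an estimate below 0. Median differences by replicate were -0.66, -0.52 and -1.08, or 1.58-fold, 1.44-fold and 2.11-fold lower. Every pair was lower in 78 of 81 models, against 27.6% of all gene models. Groups lay apart in 1 of 81 models, the same Rpl23 model (L_var_06960), against 7.46% of all gene models.

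None of the 81 passed at 15 hpf in edgeR without the block (0 at an unadjusted p under 0.05, against 10.9% of all gene models, smallest adjusted p 0.465), against 0.0589% of all gene models called. DESeq2 and limma-voom also called 0. The blocked fit also called 0, against 0.359% of all gene models called lower. Its smallest adjusted p was 0.0927, and 54 models were under 0.05 before adjustment, against 23.3% of all gene models. Without the replicate 3 pair at 21 hpf, which enters here only through the shared estimate of the spread, it called 21 lower, against 9.47% of all gene models. Rps3A, which carries the highest mean count of the 81, had 1153, 4450 and 2568 CPM in control and 760, 3673 and 973 CPM in ethanol libraries. The spread between replicates of a group was larger than the difference between groups, and its log2 fold change was -0.60 (SE 0.59, adjusted p of 0.706 in edgeR). Rpl31 had 95.7, 500 and 163 CPM in control and 51.4, 220 and 80.7 CPM in ethanol libraries, a log2 fold change of -1.11 (SE 0.66, adjusted p of 0.547 in edgeR). Rpl9 (L_var_00931) had -0.94 (SE 0.75, adjusted p of 0.646 in edgeR). The lowest estimate, -1.44, belonged to the Rpl37 model with the fewest counts, whose level was 0.444 to 4.76 CPM. Ciliated cell markers at 15 hpf were lower in ethanol embryos in 4 of 5 genes in every pair, with sums of 2099 to 3022 CPM in control and 963 to 1825 CPM in ethanol libraries. The 3 apical neuroectoderm markers were lower in every pair, with sums of 667 to 706 and 300 to 466 CPM. Their part was not tested here either.

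At 21 hpf the replicates went different ways. All 81 estimates were below 0, against 53.8% of all gene models, with a median of -0.37 and a range from -0.73 to -0.05. By replicate, however, the median difference was -0.15 in replicate 1, with 59 of 81 models lower. It was -0.90 in replicate 2, with 81 lower, and 0.19 in replicate 3, with 58 higher, in TMM-scaled log2 CPM. The share of counts, which is not TMM-scaled and weighs models by their counts, was lower in ethanol in replicate 3 too, at 6.70% against 7.42%. Every pair was lower in 7 of 81 models, against 5.59% of all gene models, and groups lay apart in 1, against 1.27%.

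With edgeR, 0 of 81 models were called at 21 hpf (0 at an unadjusted p under 0.05, against 0.685% of all gene models, smallest adjusted p 1.00), against 0% of all gene models, and DESeq2 and limma-voom called 0. Without the replicate 3 pair the median was -0.60 and 0 were called. Without replicate 3 in every group the median was -0.59, and without replicate 2 it was 0.02. Ciliated cell markers had a median difference of -0.78 and -0.65 in log2 CPM in replicates 1 and 2 and of 0.79 in replicate 3, and their part was not tested. Control libraries had counts for 22540, 22149 and 24043 gene models in replicates 1, 2 and 3, and ethanol libraries for 23131, 23089 and 22132. The number was thus higher in ethanol in replicates 1 and 2 and lower in replicate 3, and its part was not tested. The largest estimate was that of a model named Rpl13a (L_var_12937), with 13.9, 67.8 and 11 CPM in control and 13.5, 30.4 and 11.7 CPM in ethanol libraries. Only replicate 2 differed clearly, and the log2 fold change was -0.73 (SE 1.03, adjusted p of 1.00 in edgeR). Rpl30 (L_var_01824), whose protein regulates its own mRNA in yeast, had 49.0, 103 and 28.2 CPM in control and 36.8, 38.2 and 40.7 CPM in ethanol libraries. The ethanol libraries were level with each other while the control libraries ranged widely, and the log2 fold change was -0.64 (SE 0.55, adjusted p of 1.00 in edgeR).

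Averaged over the 3 times, the median log2 fold change of the 81 models was -0.75, with 81 estimates below 0, against 47.2% of all gene models. EdgeR called 0 of them, against 0.53% of all gene models (38 at an unadjusted p under 0.05, against 23% of all gene models, smallest adjusted p 0.0744). DESeq2 called 2 lower, the Rpl23 model L_var_06960 among them, against 4.55% of all gene models, and limma-voom called 0. Without the replicate 3 pair at 21 hpf, edgeR called 2 lower, the same Rpl23 model (log2 fold change -0.83, adjusted p 0.0157) and the second Rpl26 model (-1.24, adjusted p 0.0430), against 9.86% of all gene models. A dependence of the ethanol effect on time was called for 0 of 81 models (0 at an unadjusted p under 0.05, against 2.22% of all gene models, smallest adjusted p 1.00; edgeR F test). The medians of -0.68, -1.19 and -0.37 were therefore not shown to differ between times for any single model.

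From 15 to 21 hpf, ribosomal protein models had higher estimates in both kinds of embryo. The ethanol and control comparisons at 15 and 21 hpf use the same libraries as these changes, so the values stand side by side only. In control embryos the median log2 fold change was 0.49, with 79 of 81 estimates above 0, against 50.8% of all gene models. By replicate it was 1.24, 0.21 and 0.48, and 63 of 81 models were higher in every replicate, against 21% of all gene models. Without replicate 2 the median was 0.78, and without the replicate 3 pair at 21 hpf it was 0.63. EdgeR called 0 (0 at an unadjusted p under 0.05, against 17.7% of all gene models, smallest adjusted p 0.308), against 3.88% of all gene models. The blocked fit also called 0, against 7.35% called higher (smallest adjusted p 0.0516). In it 25 were at an unadjusted p under 0.05, a share near the 28.3% of all gene models. No model was called by DESeq2 or limma-voom. The blocked fit without the replicate 3 pair at 21 hpf called 4 higher, against 10.2% of all gene models. Ciliated cell markers were lower at the later time in 5, 4 and 4 of 5 genes in control replicates 1, 2 and 3, with sums of 2099 to 3022 CPM at 15 hpf and 896 to 1738 CPM at 21 hpf, and their part was not tested.

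Of the 2 models with an estimate below 0 in control embryos, Rpl24al (L_var_10393) had -0.62 (SE 0.57, adjusted p of 0.652 in edgeR). Its closest UniProt entry is a ribosome assembly factor related to Rpl24, so it is not clearly a protein of the mature ribosome. Rpl24al had 68.1, 238 and 129 CPM at 15 hpf and 92.9, 146 and 45.1 CPM at 21 hpf in control embryos. Replicate 1 was higher and replicates 2 and 3 were lower at the later time.

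In ethanol embryos the median log2 fold change from 15 to 21 hpf was 0.78, with 80 of 81 estimates above 0, against 45.3% of all gene models. By replicate it was 1.73, -0.16 and 1.72, so that replicate 2, which started highest, did not share the direction, and 16 of 81 models were higher in every replicate, against 18.8% of all gene models. The median was 1.74 without replicate 2, 0.40 without replicate 3 and 0.65 without the replicate 3 pair at 21 hpf, and 1.14 with the block. EdgeR called 0 (3 at an unadjusted p under 0.05, against 15.8% of all gene models, smallest adjusted p 0.0741), against 3.75% of all gene models. DESeq2 called 2 higher, against 4.96%, and limma-voom called 0. With the block, 53 of 81 rose, against 8.06% of all gene models. That count was 0 without replicate 1 and 0 without replicate 3, where the shares of all gene models are not given here. It was 69 without replicate 2, against 4.97%, and 5 without the replicate 3 pair at 21 hpf, against 7.44%. Without the block and without replicate 2, 42 rose, against 2.42% of all gene models.

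The smallest adjusted p-values of the blocked fit belonged to Rpl31, Rpl3 and Rpl23a. Rpl31 went from 51.4, 220 and 80.7 CPM to 182, 291 and 314 CPM in ethanol replicates 1, 2 and 3, a log2 fold change of 1.47 (SE 0.31, adjusted p of 0.00514 in edgeR) with and 1.16 (SE 0.66, adjusted p 0.438) without the block. Rpl3 (L_var_17651), which reaches toward the peptidyl transferase centre, went from 368, 1472 and 505 CPM to 1296, 1772 and 1976 CPM. Its log2 fold change was 1.40 (SE 0.31, adjusted p of 0.00763 in edgeR) with and 1.10 (SE 0.59, adjusted p 0.390) without the block. Replicates 1 and 3 were several-fold higher at the later time in both genes, and replicate 2 differed least. Rpl23a (L_var_05528), a docking site at the tunnel exit, had 1.36 (SE 0.31, adjusted p of 0.0104 in edgeR) with the block. The fits behind these values include the replicate 3 pair at 21 hpf. Without that pair, the smallest adjusted p of the 81 in the blocked edgeR fit was 0.0219.

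A name was carried by more than 1 model in 18 cases, which took in 40 of the 81 models. For such models it is not known how the authors' counting divided reads between near-identical copies, so their single values are uncertain, and the share of 1 copy within its name was compared across libraries. In 15 of 18 names the share of the leading copy set at least 1 replicate number apart, its range over 6 libraries overlapping neither of the other two. Among 1362 other names with copies and at least 100 counts in every library, 25.3% did so. The 18 names had at least 412 counts in every library, and the other names were not matched to them for level. In 0 of 18 names did the share set control apart from ethanol libraries, as in 0% of the other names. This required every ethanol library to clear every control library over replicates whose shares differ. It could hardly be met, and it does not show whether shares differ within same-numbered pairs. Of the variance in the copy ratio, a median of 86.9% went with replicate number, 0.227% with treatment and 1.35% with time. In the other names 45.1% went with replicate number.

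Rps28, a protein at the mRNA exit, had the widest range. Its first model (L_var_18408, chromosome 11, 7641210 to 7646996, plus strand) held 77.2% to 83.7% of the counts of the name in replicate 1, 94.1% to 96.7% in replicate 2 and 53.9% to 65.1% in replicate 3. These ranges run over both treatments and all 3 times, and none of them touches another. The second model (L_var_18529, chromosome 11, 11563209 to 11571659, plus strand) has the same identity of 96.9% to S. purpuratus, and its level at 18 hpf was 39.3, 24.4 and 109 CPM in control and 18.9, 13.5 and 47.6 CPM in ethanol libraries. It was lowest in replicate 2, where nearly every other model was highest.

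Rpl23 went the other way round in replicates 1 and 2. Its model L_var_06960 held 66.5% to 74.2% in replicate 1, 33.0% to 37.8% in replicate 2 and 45.6% to 51.4% in replicate 3. For Rps6, the target of the S6 kinases, the leading model (L_var_10736) held 91.8% to 93.5%, 87.1% to 88.8% and 81.9% to 84.6%. For Rpl19 the leading model (L_var_01939) held 40.3% to 51.3%, 59.7% to 62.9% and 53.7% to 58.0%.

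In most other names 1 replicate number stood out. The leading Rpl4 model (L_var_06625) held 86.7% to 89.6% in replicate 2 and 59.3% to 67.4% in the others. The leading Rps16 model (L_var_16911) held 74.6% to 77.2% in replicate 3 and 87.5% to 93.3% in the others, and the leading Rps4 model (L_var_09693) 59.0% to 61.4% against 67.7% to 70.2%. Rpl26 and Rpl37, with its 5 models, set no number apart. Of the 10 models farthest from the common course, 9 shared a name. The part of the variance in the copy ratio that went with treatment was highest in Rpl13a, with 9.48%, and in Rps13, with 6.54%. The leading Rps13 share was lower in ethanol in every pair at 15 and 18 hpf, as with 72.1% against 78.7% in replicate 1 at 15 hpf. At 21 hpf it was higher in ethanol in replicate 1, at 81.4% against 77.8%. With the 41 models that have a name of their own, the median at 18 hpf was -1.23, and 22 of these 41 were among the 43 called in the blocked fit.

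**Figure D4:**
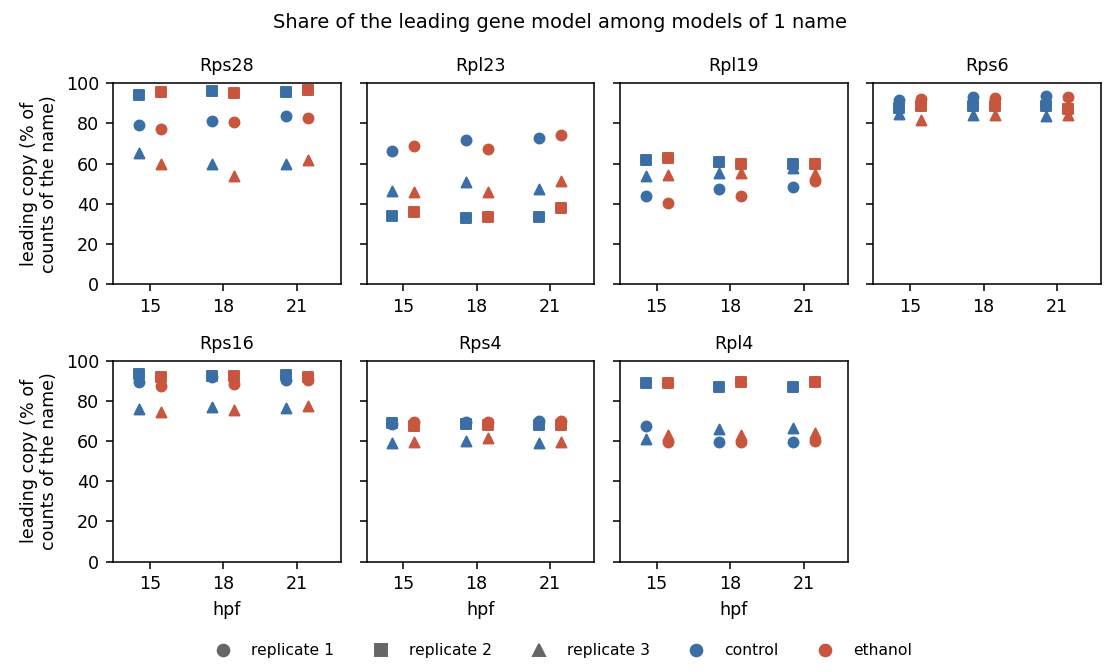
Share of the leading gene model among the counts of its name, in percent, for 7 ribosomal protein names by time (hpf). Each point is a library, the symbol its replicate number and the colour its treatment. At least 1 symbol keeps a level of its own across times and treatments in each panel, as in Rps28 with 94.1% to 96.7% in replicate 2 and 53.9% to 65.1% in replicate 3, while the colours mix.

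Other lists of the translation machinery were described beside the ribosomal proteins. At 18 hpf, ribosome biogenesis factors, which process rRNA and assemble the subunits, had a median log2 fold change of -0.65 in ethanol embryos. Of their estimates, 87 of 89 were below 0, against 46.9% of all gene models. Mitochondrial ribosomal proteins had a median of -0.62, with 41 of 41 below 0. Initiation factors had -0.55, with 35 of 41, and aminoacyl-tRNA synthetases, which charge tRNAs, -0.08, with 18 of 33, a sign that turned to 0.20 when only library totals were used for scaling. Without the block none of these genes was called at 18 hpf. With it, 7 of 89, 3 of 41, 0 of 41 and 0 of 33 fell, against 2.61% of all gene models called lower, and 1 initiation factor rose, against 1.46% called higher. Fibrillarin (Fbl, L_var_14605), which methylates rRNA, went from 163 ± 16.5 to 89.8 ± 8.70 CPM (SD, n = 3 each) with an edgeR adjusted p of 0.235, and 0.0544 with the block. The initiation factor subunit Eif3c (L_var_05030) went from 720 ± 184 to 348 ± 83.0 CPM with an edgeR adjusted p of 0.249, and 0.0523 with the block.

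The estimates of biogenesis factors and of ribosomal proteins had opposite signs over development in control embryos. From 15 to 21 hpf in control embryos, 88 of 89 biogenesis factors had a lower estimate, against 49.2% of all gene models, with a median of -0.57. Beside them, 79 of 81 ribosomal protein models had a higher one, against 50.8%, with a median of 0.49. Replicates differed: the median difference of the 89 was -0.04, -0.72 and -0.95 in log2 CPM in replicates 1, 2 and 3, with 48, 85 and 86 of them lower. Without the block 1 biogenesis factor fell, against 1.49% of all gene models. This was Utp3 (L_var_21988), a processing factor that went from 97.4 ± 16.2 to 51.8 ± 8.32 CPM (SD, n = 3 each, log2 fold change -0.91, edgeR adjusted p 0.0444). With it, 15 of 89 fell, against 5.92% of all gene models. Nop2 (L_var_19271), an rRNA methyltransferase, was among them, with 101 ± 64.3 CPM at 15 hpf and 16 ± 9.42 CPM at 21 hpf (log2 fold change -2.56, edgeR adjusted p 0.000106 with the block). In ethanol embryos 67 of 89 biogenesis factors had a lower estimate, against 54.7% of all gene models, with a median of -0.14. By replicate it was -0.05, -0.59 and 0.30, so that in replicate 3 the biogenesis factors were higher at the later time, as the ribosomal proteins were. The fits of the biogenesis factors over time include the replicate 3 pair at 21 hpf, and are not given without it here.

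**Figure D5:**
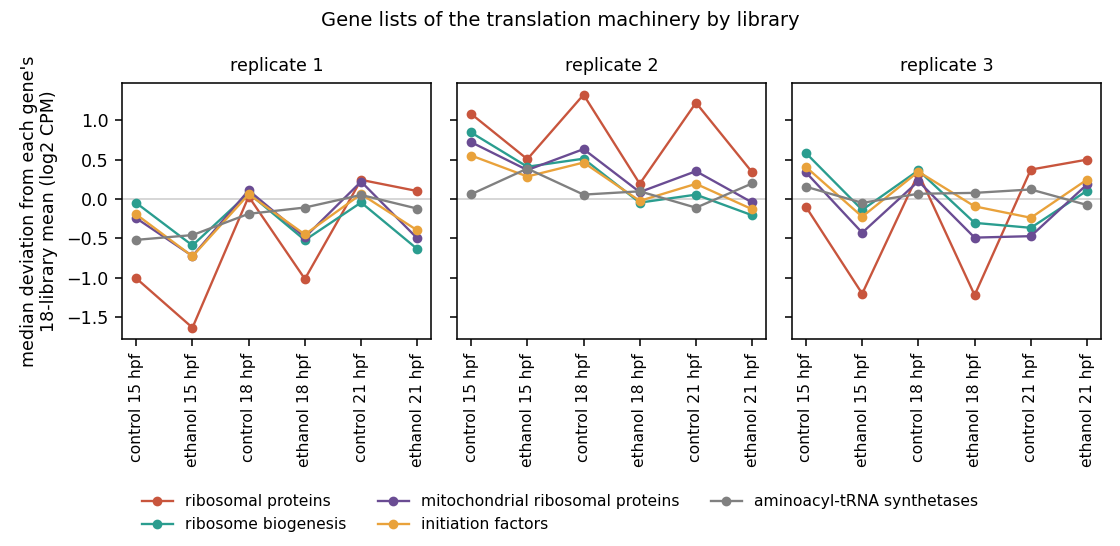
Median deviation of 5 gene lists from each gene's mean over 18 libraries, in log2 CPM, by group and replicate. Ribosomal proteins (red) have the widest excursions and dip in ethanol at 15 and 18 hpf in every replicate. At 21 hpf the line goes down from control to ethanol in replicate 2 and slightly in replicate 1, and up in replicate 3.

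The stalk proteins of the large subunit and the ubiquitin fusion Rps27a (Drps27a in the annotation) do not carry an S. purpuratus name of the form used here, and are outside the 81. In all, 15 further models had a ribosomal protein as closest UniProt entry. Of these 15, 14 had a lower estimate in ethanol embryos at 18 hpf, against 46.9% of all gene models, with a median log2 fold change of -1.08. Without the block 0 were called, against 0% of all gene models, and with it 4 fell, against 2.61%. The model closest to the stalk protein Rplp0 (L_var_02108) had -0.92 (SE 0.55, adjusted p of 0.385 in edgeR), the one closest to Rplp1 (L_var_14952) had -1.11 (SE 0.66, adjusted p 0.383), and the one closest to Rps27a (L_var_13894) had -1.06 (SE 0.58, adjusted p 0.352). The exception was 1 of 2 models closest to Rpl24 (L_var_27140), with 1.59 (SE 0.68, adjusted p of 0.280 in edgeR) and a mean count of 23.9. The other (L_var_09489), with a mean count of 3881, had -1.31 (SE 0.75, adjusted p of 0.369 in edgeR).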

How the data were processed

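RNA-seq read counts per gene model were used as the authors deposited them. Per the submitters' processing notes the authors used fastp, STAR and featureCounts, and versions, strand setting and genome build are not given in the sources used here. A deposited annotation supplied positions and the best S. purpuratus hit with its percent identity, per the file headers. Replicates 1, 2 and 3 are letters A, B and C of the sample sheet, all count columns had a sample, and a RefSeq table with other identifiers was not used.

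Counts were analysed in R 4.3.3 with edgeR 4.0.16: filterByExpr (minimum count 10, minimum total 15) kept 18674 of 27230 gene models, with TMM library scaling. A quasi-likelihood model with 6 group means was fitted to 18 libraries, with two-sided tests in 7 comparisons, Benjamini-Hochberg adjustment over all models and a threshold of 0.05. The standard error (SE) was the log2 fold change divided by the square root of F. Levels are TMM-scaled CPM, not adjusted for length, so levels of different genes are not compared. The script was tested on simulated data. A second fit, blocked by replicate number, is given for results at 15 hpf, 18 hpf and from 15 to 21 hpf, where every same-numbered pair of libraries deviated from its group means with a correlation above 0.1. At 21 hpf the pairs did not all do so. From 15 to 21 hpf these correlations were 0.223 to 0.611 in control and 0.309 to 0.573 in ethanol embryos.

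Alternatives were DESeq2 1.42.0, limma-voom (limma 3.58.1), other scalings, no filter and left-out replicates. Leaving replicates out of the blocked fit was added after seeing the data. The members, the gene lists, the alternatives and the naming rule were chosen with earlier results of these data known. The rule named models called in any comparison (the 10 with the largest change where over 30 were called), the 5 largest changes in each ethanol comparison, the 5 highest and 5 lowest mean counts, Rpsa and Rps6, models sharing a name, and the 3 smallest p-values of each list. Rps23, Rpl3, Rpl23a, Rpl22, Rps25 and Rps3 were singled out after their values were seen. Some models are not reported by name here.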

Additional observations from a re-analysis of the deposited data

How the results depend on the processing

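At 18 hpf scaling by library totals only gave a median of -0.89, a scaling that moved the median of all gene models to 0.35 there, 0.32 at 15 hpf, 0.23 in the mean, and 0.15 and -0.17 over time in control and ethanol embryos. At 21 hpf leaving out 1 replicate or the replicate 3 pair gave -0.60 to 0.020, the latter without replicate 2, and the block gave -0.24. Leaving out 1 replicate gave 0.40 to 1.74 from 15 to 21 hpf in ethanol and 0.35 to 0.78 in control embryos. Counts of called models were 0 without the block and moved under few settings. DESeq2 called 2 in the mean over times and 2 from 15 to 21 hpf in ethanol embryos, where leaving out 1 replicate gave 0 to 42. Leaving out the replicate 3 pair at 21 hpf gave 2 in the mean. The replicate block called 43 at 18 hpf, 76 in the mean and 53 from 15 to 21 hpf in ethanol embryos. At 21 hpf and in the mean the same numbers did not pair all libraries, so 76, against 12.2% of all gene models called lower, is given here alone. Leaving 1 replicate out of the blocked fit gave 0 to 8 at 18 hpf, 0 to 54 in the mean (54 without replicate 3, against 17%) and 0 to 69 from 15 to 21 hpf in ethanol embryos. The block without the 21 hpf pair of replicate 3 called 21 at 15 hpf, 79 at 18 hpf, 6 at 21 hpf (a share near the 6.03% of all gene models), 80 in the mean (against 23.2%), 4 over time in control and 5 over time in ethanol embryos. At 21 hpf the estimates of 5 named models turned positive without replicate 2. Leaving out 1 replicate, or the pair, without the block gave -0.90 to 0.036 for Rpl13a (L_var_12937), -1.02 to 0.018 for Rpl30 (L_var_01824), -1.03 to 0.33 for Rpl37 (L_var_09380), and -0.61 to 0.032 and -0.57 to 0.091 for Rps6 (L_var_10736 and L_var_10590). In the blocked fit without replicate 2 these 5 were 0.037, 0.074, 0.37, 0.019 and 0.056. Causes were not tested. In 196 comparisons of a count, median or share with an alternative, the direction was kept, counts stayed within 1.5 times, and medians and shares moved by less than 1 SD between replicates. Another 17 such comparisons moved by more, and 1 reversed its direction.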

Other observations

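Aminoacyl-tRNA synthetases had estimates on both sides of 0 in ethanol embryos at 18 hpf. The 3 with the smallest p-values had higher estimates, and none was called. Mars (L_var_06849), for methionine, had 136 ± 33.2 CPM in ethanol and 58.0 ± 14.3 CPM in control embryos, a log2 fold change of 1.23 (edgeR adjusted p 0.235, and 0.0531 with the block). Cars (L_var_15879), for cysteine, had 37.0 ± 9.87 and 17.2 ± 1.71 CPM (log2 fold change 1.10, edgeR adjusted p 0.245, and 0.0701 with the block). Yars (L_var_08345), for tyrosine, had 67.0 ± 13.7 and 36.2 ± 2.69 CPM (log2 fold change 0.89, edgeR adjusted p 0.268, and 0.0805 with the block). All are means ± SD of 3 libraries.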
